A study of Mus musculus with 29 samples.

Results

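The genes of synaptic vesicles and of the SNARE machinery were followed through 29 single retinal ganglion cells (RGCs) of adult C57BL/6 mice. The rule for members used symbols and no values. It took the genes named *Syt*, *Stx*, *Vamp*, *Cplx* or *Snap* with a number, those whose symbols begin with *Rab3*, *Stxbp* or *Sv2*, and *Syn1*, *Syn2*, *Syn3*, *Syp*, *Slc17a6* and *Rph3a*. This gave 81 of the 18194 genes that had a probe set of their own. Of the members' 186 probe sets, 1 was read for each gene, and taking any of them would add 1 to 5 cells to the detection counts of 16 members. The stem *Rab3* also took in 12 GTPases numbered from *Rab30* to *Rab39b*, and the stem *Snap* took in *Snap91*, a clathrin assembly protein. Each RGC had been recorded in cell-attached mode in the whole mounted retina, classified by its light responses and aspirated, and its RNA was reverse transcribed from the poly-A tail, amplified and hybridized to 1 Affymetrix mouse genome array. The 8 direction selective (DS) cells were 4 ON DS and 4 ON-OFF DS cells. Of the 9 alpha cells, 4 were sustained OFF cells (OFF S alpha), 3 were transient OFF cells (OFF T alpha) and 2 were ON alpha. The 2 orientation selective (OS) cells were ON vOS and ON hOS, and 10 cells belonged to other subtypes, among them 2 SbC cells. The labels give no treatment and no transgene for these mice. A cell's name joins its subtype to its number in the sample labels.

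A neuron releases transmitter when a vesicle fuses with the plasma membrane. A VAMP on the vesicle pairs with a syntaxin and SNAP-25 on the target membrane, Munc18 proteins (from several *Stxbp* genes) guide the syntaxin, complexins bind the assembled complex, and synaptotagmins couple fusion to calcium. Rab3 proteins bring vesicles to the release site, synapsins hold them in reserve, and vesicular transporters such as that encoded by *Slc17a6* fill them. RGCs carry this machinery to the terminals of their axons in the brain and release glutamate there. Photoreceptors and bipolar cells release from ribbon synapses inside the retina, which use syntaxin 3 and the complexins 3 and 4 in place of the forms common in the brain.

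A gene was called detected at a signal of 3000, 2 times the trimmed mean of 1500 that every array shared, and log2 signals were taken above a floor of 375 (8.55 on the log2 scale). The number of genes detected per cell, which stands for depth, ran from 1182 to 4201 with a median of 2908. RGC markers were present throughout, with *Sncg* and *Uchl1* detected in 29 of 29 cells and a median of 10 of 13 markers per cell. Rod photoreceptor RNA was also present. In 18 cells at least 5 of 10 rod genes were detected, and 6 cells had none. The 18 were 3 of 8 DS cells, 6 of 9 alpha cells, 1 of 2 OS cells and 8 of 10 other cells. Below, they are called rod-bearing cells, or cells that held rod RNA. The 11 others are called cells without rod RNA, although up to 2 rod genes were detected in them. Of 10 Müller glia markers a median of 3 and at most 6 were detected per cell, with *Clu* in 27 cells and *Dkk3* in 21. Of 8 bipolar cell markers at most 4, and of 9 amacrine cell markers at most 3, were detected in any cell. The animals behind the cells are not named and each library is 1 cell, so groups are described without tests and without standard errors.

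Many of these genes were found in most cells, and few of them in none. Of the 81 members, 23 (28.4%) were detected in at least 15 cells, against 10.6% of all genes, and 16 members (19.8%) were detected in at least 22 cells, against 4.2% of all genes. At the other end, 10 members (12.3%) were detected in no cell, against 45% of all genes. A further 11 members (13.6%) were detected in 1 cell each, against 9.83% of all genes. Another 22 (27.2%) were detected in 5 to 14 cells, against 20.3% of all genes.

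The plot of all detected members by cell shows how these genes divided into a block found nearly everywhere and a larger set found in scattered cells.

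**Figure D1:**
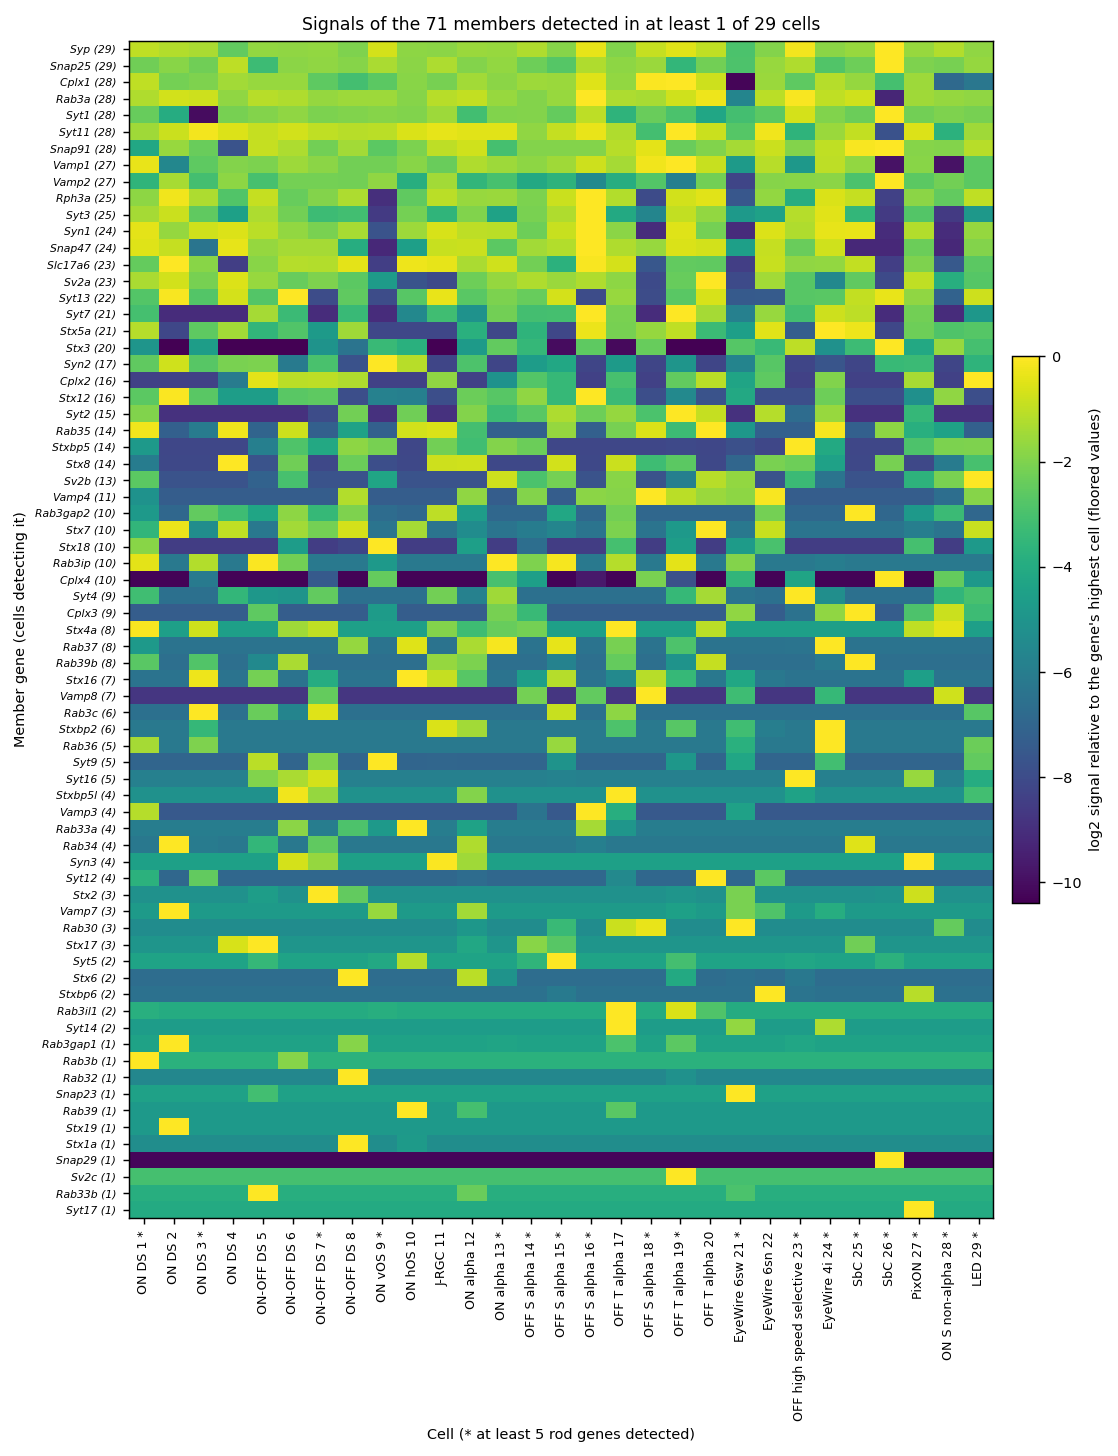
Log2 signals of the 71 members detected in at least 1 cell (rows, with the number of cells detecting each) in the 29 cells (columns), drawn relative to each gene's own highest cell, so that colours compare cells within a row and not genes with each other. The upper rows, from *Syp* and *Snap25* in 29 cells to *Syt13* in 22, are bright in most columns. Several of them go dark in the same few cells, but *Syp* and *Snap25* do not. Others, such as *Sv2a* and *Syt13*, go dark in further cells as well. The lowest rows are bright in single cells.

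Among the proteins that drive fusion itself, *Snap25*, the SNAP-25 of the plasma membrane, was detected in every cell (100%, exact 95% interval 88.1 to 100%). Its signal ran from 39500 in OFF T alpha 19 through a median of 124956 to 445946 in SbC 26. The synaptobrevins *Vamp1* and *Vamp2*, the vesicle SNAREs of neurons, were detected in 27 cells each. Both were detected in 25 cells, 1 of them in each of the other 4, and no cell lacked both. *Snap47*, a relative of *Snap25*, was detected in 24 cells. *Stx1a*, a syntaxin of the plasma membrane, was detected in 1 cell (3.45%, interval 0.0873 to 17.8%), ON-OFF DS 8, at 14576, and lay at or below 551 in the other 28. Of the 14 syntaxins with a value, *Stx5a* of the Golgi (21 cells), *Stx3* (20) and *Stx12* of recycling endosomes (16) were detected in at least 15 cells, and none reached 22.

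*Syp*, which encodes synaptophysin, a main membrane protein of synaptic vesicles, was the other member detected in every cell, which held for 2.47% of members and 0.55% of all genes. Its signal ranged from 57140 in EyeWire 6sw 21 to 437782 in SbC 26, with a median of 144692. *Sv2a*, a vesicle glycoprotein, was detected in 23 cells, its relatives *Sv2b* in 13 and *Sv2c* in 1 (OFF T alpha 19). *Slc17a6*, the glutamate transporter VGLUT2, was below the threshold in 6 cells, ON DS 4, ON vOS 9, OFF S alpha 18, EyeWire 6sw 21, SbC 26 and ON S non-alpha 28. All but ON DS 4 held 9 or 10 rod genes. ON DS 4 held none, and there the gene's second probe set was detected.

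The 300 bases around the *Syp* start are shown because this gene was detected throughout. The sequence is that of RefSeq (GRCm38.p6) on the plus strand at chrX:7638330-7638629, from 250 bases before the start to 50 after it, with GC boxes (GGGCGG on either strand) in capitals.
*Syp*: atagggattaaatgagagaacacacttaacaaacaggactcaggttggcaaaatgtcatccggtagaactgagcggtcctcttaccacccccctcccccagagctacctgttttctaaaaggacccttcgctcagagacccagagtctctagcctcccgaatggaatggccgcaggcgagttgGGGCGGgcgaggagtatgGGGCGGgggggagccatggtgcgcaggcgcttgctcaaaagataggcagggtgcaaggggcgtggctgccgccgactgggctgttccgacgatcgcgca

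Promoter windows were found for 65 of the 81 members, 89 windows in all. The GC box, the binding motif of Sp1-type factors, was found in 56 of them (62.9%), against 35.7% of all 32851 windows of the table. Member windows also held more G and C, with a median of 61% against 52.7% for all windows and 58.3% for windows of genes with a value here. The TATA box (TATAAA on either strand) was in 6.74% of member windows and in 13.6% of all. It was absent from the 18 windows found for 13 of the 16 widely detected members, while *Stx3*, *Sv2b*, *Stx2*, *Rab3b* and *Rab39b* had it. The cAMP response element TGACGTCA was found for *Syn1* and *Stxbp3*. CCAAT, the CCAAT box, was in 24 of 89 member windows and in 37.4% of all, and CACGTG, an E-box, in 12.4% and 7.15%. All were searched on both strands, and none of these strings contains another. Motif shares were not counted for windows of genes with a value here, whose G and C content lay closer to that of the members. The contrasts therefore do not separate members from other genes of the array. These are matches of letters in short windows, and no binding was measured.

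Of the calcium sensors, *Syt1*, the sensor of fast synchronous release, was detected in 28 cells, and only ON DS 3 lacked it, at a signal of 76. *Syt2*, its close relative at synapses with very fast release, was detected in 15 cells, each of which also had *Syt1*. *Syt11*, a synaptotagmin that binds no calcium, was detected in 28 cells, *Syt3*, a sensor of high calcium affinity, in 25 and *Syt13*, which also binds no calcium, in 22. *Syt7*, a slow sensor of high affinity linked to asynchronous release, was detected in 21 cells. *Syt6*, *Syt8* and *Syt10* were detected in no cell.

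Among the complexins, *Cplx1* was detected in 28 cells and missing only from EyeWire 6sw 21 (235). *Cplx2* was detected in 16 cells, 15 of which also had *Cplx1*. For the synapsins, *Syn1* was detected in 24 cells, *Syn2* in 17 and *Syn3* in 4. *Rab3a*, the main Rab3 of neurons, was detected in 28 cells and its effector rabphilin, *Rph3a*, in 25. The other Rab3 genes were seen little, with *Rab3c* in 6 cells, *Rab3b* in 1 (ON DS 1, at 4992) and *Rab3d* in none. *Snap91*, the clathrin assembly protein AP180, was detected in 28 cells. None of the 12 GTPases from *Rab30* to *Rab39b* was detected in 15 cells.

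The members found in no cell were *Rab3d*, *Rab31*, *Rab38*, *Stx11*, *Stxbp3*, *Stxbp4*, *Syt6*, *Syt8*, *Syt10* and *Vamp5*. For each, 0 of 29 cells allows a share of up to 11.9% by the exact interval, which covers counting error only. Several have known roles outside neurons, such as *Stx11* in the granules of lymphocytes and *Rab38* in pigment granules. Another 9 members were detected within a single subtype of more than 1 cell, a count for which the share of all genes was not taken. All but 1 of the 9 rested on a single cell. The exception, *Rab3il1*, whose product binds Rab3, was detected in 2 of 3 OFF T alpha cells, at 6002 in cell 17 and 3951 in cell 19, and lay at 832 in cell 20.

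The number of members detected in a cell ran from 13 in SbC 26 to 40 in OFF T alpha 17, with a median of 28. The median was 30 in DS cells (23 to 34), 30 in alpha cells (20 to 40), 22 in the 2 OS cells and 26 in the other 10, ranges that overlapped throughout. This number followed depth, with a Pearson r of 0.76 between members and all genes detected over the 29 cells (Spearman rho 0.72). Leaving out the 2 cells with the depths farthest from the median gave r = 0.80. Cells with at least 5 rod genes had a median of 27.5 members and the 11 others 28. Over all cells the number of members had an r of -0.43 (rho -0.33) with the rod mean, the average log2 signal of 10 rod genes in a cell, and the number of the 16 widely detected members one of -0.54 (rho -0.34). Without the 2 cells whose rod mean lay farthest from the median these r were -0.47 and -0.56.

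**Figure D2:**
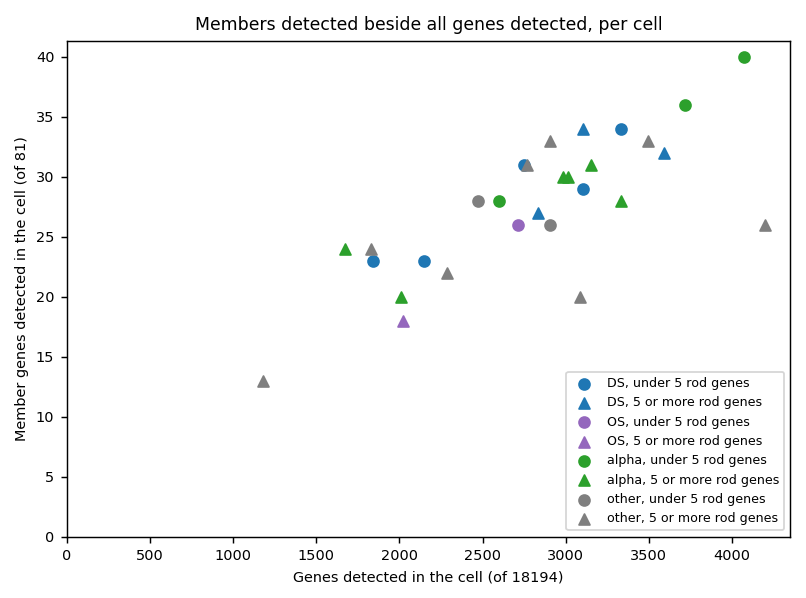
Number of members detected (of 81) against the number of all genes detected in the same cell (of 18194), 1 point per cell, coloured by class, with triangles for cells with 5 or more rod genes. The points rise together from SbC 26 (13 members, 1182 genes) to OFF T alpha 17 (40 members, 4073 genes), and EyeWire 6sw 21 lies below the others of its depth (26 members, 4201 genes).

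The 16 widely detected members fell short together in 5 cells. SbC 26 had 7 of the 16, EyeWire 6sw 21 had 9, and ON vOS 9, OFF S alpha 18 and ON S non-alpha 28 had 10 each. *Syn1* was missing from all 5, *Slc17a6* from all 5, and *Syt13* or *Syt3* from each. These 5 cells held 9 or 10 of the 10 rod genes and 5 to 8 of the 13 RGC markers. In each of the remaining 24 cells at least 14 of the 16 were detected. Rod RNA was not confined to the 5, and OFF high speed selective 23 and LED 29 had all 16 members beside 9 and 10 rod genes. SbC 26, which had the fewest genes, gave the highest signals of *Snap25*, *Syp*, *Syt1*, *Vamp2* and *Snap91* of any cell. The part of rod RNA or of depth in these values was not tested.

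The comparison of DS with alpha cells asked which members differ between the 2 classes with most cells. A difference was counted where the median log2 signals of the classes lay at least 2 apart (4-fold) and at least 50% of the cells of the higher class detected the gene. By this rule 4 members were higher in DS cells (4.94%, against 2.52% of all genes) and 9 were higher in alpha cells (11.1%, against 3.53% of all genes). Among genes detected in at least 3 cells, the shares were 6.45% and 9.04%, and those of the 55 members among them 7.27% and 16.4%. The median difference was 0 over the 81 members and over all genes. Ranges of the classes overlapped for all 13 members, and over all genes 0 and 0.011% were free of overlap in either direction.

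For the most widely detected members the medians of both classes lay close together. *Snap25* had a median signal of 122487 in DS and 116603 in alpha cells, a log2 difference of 0.07, *Rab3a* one of 0.06 and *Syt1* one of 0.38. *Vamp2* was detected in DS cells at a median of 37806 and in alpha cells at 13786, a log2 difference of 1.46 that was under the rule.

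**Figure D3:**
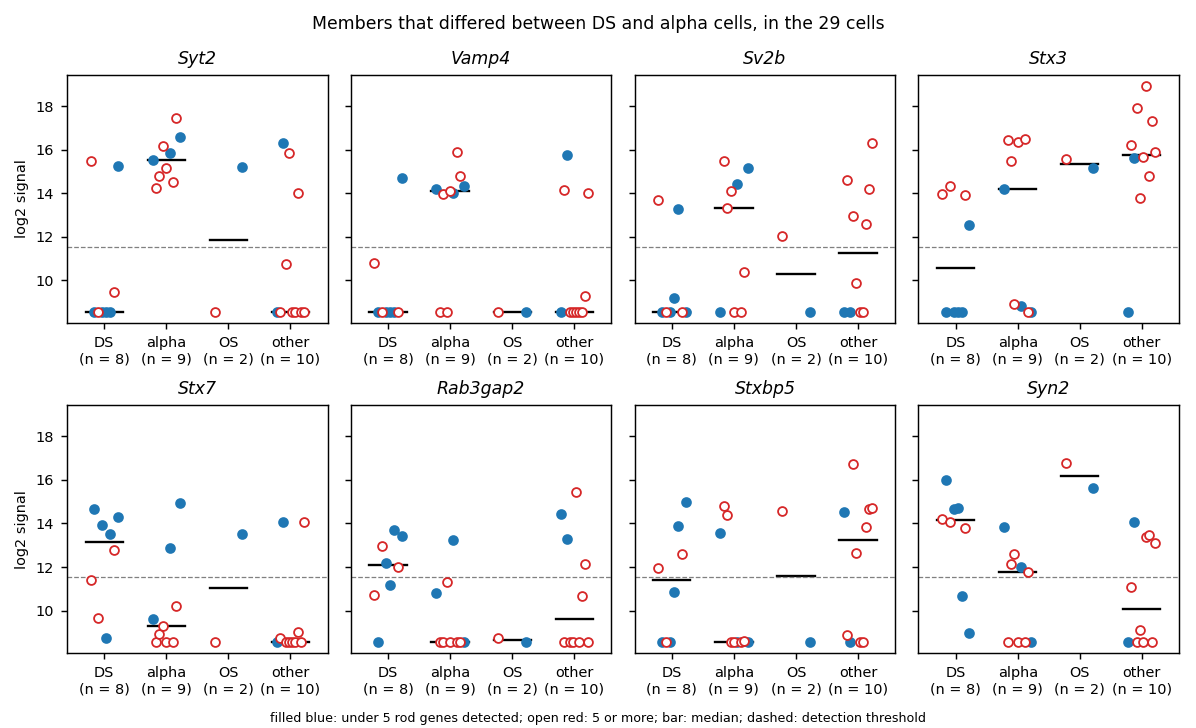
Log2 signals of 8 members in DS, alpha, OS and other cells, 1 point per cell, each panel read on its own, with bars at the median and a dashed line at the detection threshold of 3000. All 9 alpha points of *Syt2* lie above the line and 6 of 8 DS points below it. Open points are cells with at least 5 rod genes and filled points the others. For *Stx3* 16 of 18 open and 4 of 11 filled points lie above the line, and for *Stx7* 2 of 18 and 8 of 11. Open and filled points mix in part in both panels.

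The largest member difference was that of *Syt2*. All 9 alpha cells detected it, at signals from 19119 through a median of 47519 to 181649. In DS cells the lowest signal was 48, the median 192 and the highest 46010, and *Syt2* was detected in 2 of 8. The ranges overlapped through ON DS 1 (46010) and ON-OFF DS 8 (39505), and the other 6 DS cells lay at or below 719. The difference of the medians was -6.99 on the log2 scale, the 8th lowest of 18194 genes. Of the genes before it in that order, *Pde6g* and *Sag* belong to the 10 rod genes read here. The list of 10 did not hold *Prcd*, which came 3rd at -7.46, and the other genes before *Syt2* were not sorted by cell type. *Syt2* itself was found in 6 of 6 rod-bearing alpha cells and in 3 of 3 with under 5 rod genes. The difference was -7.29 without the rod-bearing cells. Outside both classes it was detected in ON hOS 10 (37786), EyeWire 6sn 22 (81638), EyeWire 4i 24 (59134) and PixON 27 (16598). The 2 remaining *Syt2* probe sets were detected in 2 cells each and in no alpha cell, so that the pattern rests on 1 probe set.

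RefSeq (GRCm38.p6) gives *Syt2* 2 start sites, shown because this gene set the classes apart most among the members. Both windows lie on the plus strand, at chr1:134646362-134646661 and chr1:134709050-134709349. Capitals mark GC boxes (GGGCGG) and the CCAAT box, in either orientation.
*Syt2*, upstream start: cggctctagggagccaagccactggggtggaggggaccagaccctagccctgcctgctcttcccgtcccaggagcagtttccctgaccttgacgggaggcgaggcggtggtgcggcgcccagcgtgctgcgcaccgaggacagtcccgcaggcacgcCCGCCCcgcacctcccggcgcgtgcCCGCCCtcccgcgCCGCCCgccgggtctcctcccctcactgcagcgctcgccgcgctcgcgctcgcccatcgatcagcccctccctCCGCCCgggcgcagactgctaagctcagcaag
*Syt2*, downstream start: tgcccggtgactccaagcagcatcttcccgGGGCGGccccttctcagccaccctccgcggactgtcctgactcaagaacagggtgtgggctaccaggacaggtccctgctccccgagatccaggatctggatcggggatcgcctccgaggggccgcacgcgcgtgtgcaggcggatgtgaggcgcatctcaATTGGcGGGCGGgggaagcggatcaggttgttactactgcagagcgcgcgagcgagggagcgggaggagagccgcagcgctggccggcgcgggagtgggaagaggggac

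Another 4 members higher in alpha cells, *Vamp4*, *Sv2b*, *Rab37* and *Rab35*, kept a difference of more than 2 without the cells that held rod RNA. *Vamp4*, a SNARE of endosomes and the trans-Golgi network, passed the threshold in 7 of 9 alpha cells and 1 of 8 DS cells (ON-OFF DS 8, at 26766). Among alpha cells with under 5 rod genes it was detected in 3 of 3, and its difference was -5.63 without the rod-bearing cells. The pattern rests on 1 probe set, since the second was detected in 2 cells of each class, with a difference of 0.29, and the third gave 0. *Sv2b*, a vesicle glycoprotein also found in photoreceptor terminals, was detected in 5 of 9 alpha and 2 of 8 DS cells, with alpha signals from 35 through a median of 10338 to 46174 and DS signals from 6 through 118 to 13033. Its difference was -4.78, and -5.88 without the rod-bearing cells, but -0.95 at its second probe set. *Rab37*, which acts in the exocytosis of granules, was detected in 5 of 9 alpha and 1 of 8 DS cells (difference -3.52, and -4.31 without those cells). It became -1.76 on leaving out any of ON alpha 12, ON alpha 13, OFF S alpha 15 and OFF T alpha 17, and -2.15 without OFF T alpha 19. The second probe set of *Rab37* was detected in 0 cells. *Rab35*, of endocytic recycling, differed by -2.13, and by -2.27 without the rod-bearing cells. It became -1.29 without any 1 of ON-OFF DS 5, ON DS 2, ON-OFF DS 7 and ON DS 3.

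*Syt7* was detected in 8 of 9 alpha cells, with a median of 42862, and in 4 of 8 DS cells, with a median of 10053. The difference was -3.97, and its other probe sets gave -3.21, -1.41 and 0. It became -1.23 without the cells that held rod RNA and -1.11 without any 1 of ON DS 2, ON DS 3, ON DS 4 and ON-OFF DS 7. *Stx8*, a SNARE of late endosomes, differed by -3.68 (5 of 9 against 3 of 8 cells), and by -1.48 without the rod-bearing cells. *Stx3*, taken up with rod RNA below, differed by -3.64 (5 of 9 against 4 of 8 cells), and by -0.26 without them. *Rab3ip*, an exchange factor of Rab8, differed by -2.19, and by 0 without them. Leaving out single cells brought *Stx8* to between -4.53 and -1.22 (lowest in size without ON alpha 12, OFF S alpha 15, OFF T alpha 17 or OFF T alpha 19), *Stx3* to between -5.64 and -0.99 (without ON alpha 13 or any of OFF S alpha 14, 16 and 18) and *Rab3ip* to between -4.19 and -0.10 (without ON alpha 13, OFF S alpha 15, OFF T alpha 17 or OFF T alpha 19). Whichever cell was left out, 6 of the 13 members still met the rule, *Syt2*, *Vamp4*, *Sv2b*, *Stx7*, *Rab3gap2* and *Syn2*. Without ON DS 2 alone, 5 and not 9 members counted as higher in alpha cells.

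The members higher in DS cells were *Stx7*, *Rab3gap2*, *Stxbp5* and *Syn2*. *Stx7*, the syntaxin of late endosomes, was detected in 5 of 8 DS cells, with signals from 426 through a median of 9472 to 25761. In alpha cells its signal ran from 8 through 622 to 31735 and it was detected in 2 of 9, both OFF T alpha. The difference was 3.88, and 1.06 without the rod-bearing cells, where 4 of 5 DS and 2 of 3 alpha cells detected it. *Rab3gap2*, the non-catalytic subunit of the complex that switches Rab3 off, was detected in 5 of 8 DS cells and 1 of 9 alpha cells, with a difference of 3.56 that became 1.42 in the cells without rod RNA. *Stxbp5*, tomosyn, which holds back SNARE assembly, differed by 2.85, with detection in 4 of 8 and 3 of 9 cells, and no longer met the rule without any 1 of the 4 DS cells that detected it. *Syn2* differed by 2.36, but its second most often detected probe set differed by -3.85, so that its direction depended on the probe set.

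Genes of the same process outside the rule were read from a list of 36, of which 34 had a value. Of these, 12 were detected in at least 15 cells, against 10.6% of all genes, and 7 in at least 22, against 4.2%. The 7 were *Nsf*, the ATPase that takes SNARE complexes apart (29 cells), its adaptor *Napa*, *Dnajc5*, *Cadps*, *Scamp1*, *Scamp5* and *Syngr3*. By the same rule *Rims3*, a small RIM of the active zone, was higher in DS cells (7 of 8 against 1 of 9 cells, difference 5.11). *Rims1*, a scaffold of the active zone, and *Nptn*, a synaptic adhesion protein, were higher in alpha cells (-2.55 and -2.99). Of 14 recycling genes with a value, 7 were detected in at least 22 cells and *Itsn1*, an endocytic scaffold, was higher in DS cells (6 of 8 against 4 of 9 cells). In all, 1 of 34 and 1 of 14 genes were higher in DS cells, where 2.52% of all genes were. Higher in alpha cells were 2 of 34 and 0 of 14, where 3.53% of all genes were. No difference of these lists from all genes is read from counts this small.

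Within the DS class, ON DS and ON-OFF DS cells differed most at *Cplx2*. By the same rule 3 members were higher in ON DS cells (3.7%, against 3.13% of all genes) and 7 in ON-OFF DS cells (8.64%, against 8.15%). Among genes detected in at least 3 cells the shares were 5.45% of members against 7.94% of genes and 12.7% against 20.6%. Of the 10 members, *Cplx2*, *Syt7*, *Syt16* and *Stxbp5* met the rule whichever cell was left out. *Cplx2*, a complexin of brain synapses, read 91161, 59112, 59883 and 52297 in the 4 ON-OFF DS cells. In the 4 ON DS cells it read 109, 215, 19 and 1852, all below the threshold. The groups did not overlap, which held in this direction for *Cplx2* and *Syt1* among members (2.47%) and for 0.544% of all genes. The difference of the medians was -7.31, the 3rd lowest of 18194 genes, and the geometric mean of the ON-OFF DS cells was at least 21.4-fold above the threshold that bounds the ON DS cells. A second probe set of the gene was also detected in the same 4 ON-OFF DS cells and in no ON DS cell, and the remaining one was detected in no cell. Without the rod-bearing cells the difference was -6.15. *Cplx1* was detected in all 8 DS cells.

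The start of *Cplx2* is shown because this gene set the DS subtypes apart. RefSeq (GRCm38.p6) places it on the plus strand with the window chr13:54302306-54302605. None of the 5 motifs searched was found in it, so the run has no capitals.
*Cplx2*: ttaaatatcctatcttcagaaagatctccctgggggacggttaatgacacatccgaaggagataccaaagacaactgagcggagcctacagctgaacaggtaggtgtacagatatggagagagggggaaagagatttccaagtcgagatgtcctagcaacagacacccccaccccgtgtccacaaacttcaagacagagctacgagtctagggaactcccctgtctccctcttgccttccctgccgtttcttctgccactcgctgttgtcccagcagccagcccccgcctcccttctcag

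**Figure D4:**
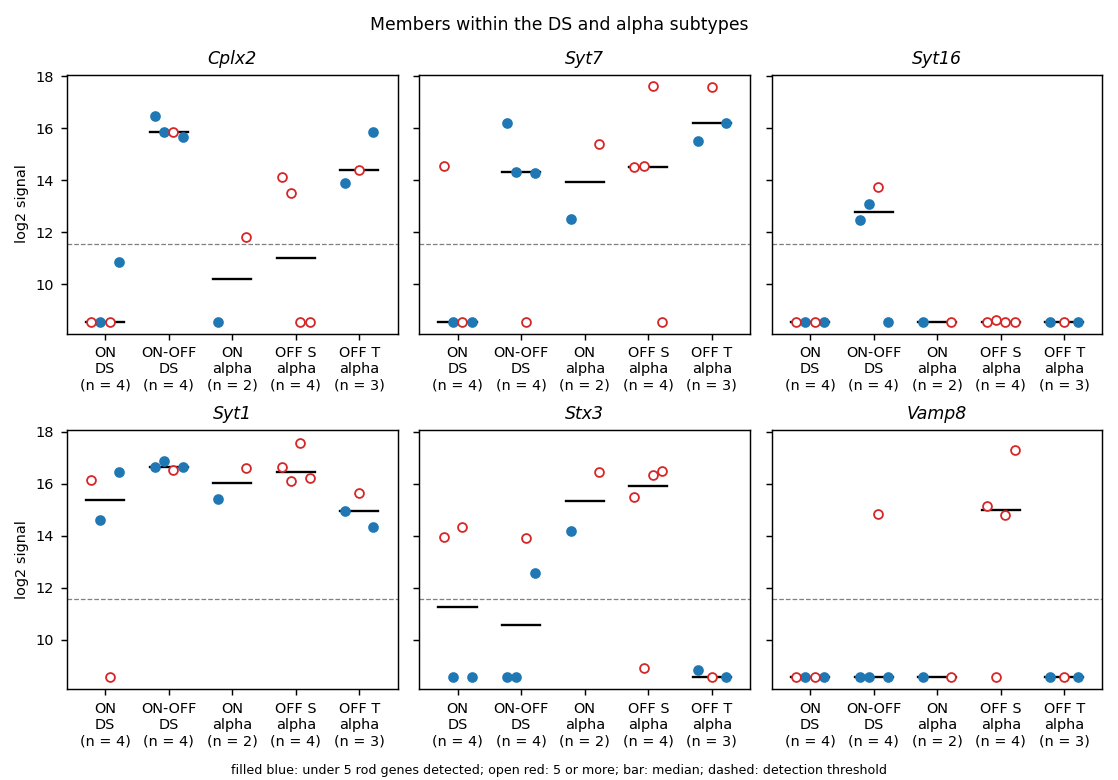
Log2 signals of 6 members in the DS and alpha subtypes, 1 point per cell, each panel read on its own, with bars at the median and a dashed line at the detection threshold. The 4 ON-OFF DS cells lie above all 4 ON DS cells for *Cplx2*, and the 4 OFF S alpha cells above all 3 OFF T alpha cells for *Stx3*, where all 4 hold rod RNA.

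At the probe set read, *Syt7* passed the threshold in 3 of 4 ON-OFF DS cells (75420, 20436 and 19914, with 191 in ON-OFF DS 7) and 1 of 4 ON DS cells (24167 in ON DS 1, with 6, 42 and 8 in the others). Another of its probe sets was detected in 2 cells of each subtype, ON DS 2 and ON-OFF DS 7 among them. *Syt16*, a synaptotagmin that binds no calcium, read 5591, 8625, 13580 and 25 in the ON-OFF DS cells and stayed at or below 333 in the 4 ON DS cells. Elsewhere it was detected in OFF high speed selective 23 (21582) and PixON 27 (7133), so it was not limited to ON-OFF DS cells. *Stxbp5* differed by -4.69, and *Syt9*, a sensor related to *Syt1*, and *Rab3c* by -2.52 each. The members higher in ON DS cells were *Rab35* (2.56), *Syn2* (2.22) and *Rab36* (2.08). The sign of *Rab35* turned without ON DS 1 or without ON DS 4 (-0.36 each). *Rab36* became 0 without ON DS 1 or ON DS 3, *Syn2* 0.66 without ON-OFF DS 6 or ON-OFF DS 8, and *Syt9* 0 and *Rab3c* -0.86 without ON-OFF DS 5 or ON-OFF DS 7. *Syt1* was lower in ON DS than in ON-OFF DS cells without overlap, at 72624, 25170, 76 and 89132 against 103227, 119420, 95224 and 101097.

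In the comparison of OFF S alpha with OFF T alpha cells, 5 members were higher in OFF S alpha cells (6.17%, against 3.39% of all genes) and 14 in OFF T alpha cells (17.3%, against 8.43%). Among genes detected in at least 3 cells the shares lay closer, at 9.09% of members against 8.6% of genes and 23.6% against 21.4%. Of the 19 members, *Stx3*, *Vamp8*, *Stx7*, *Rab39b* and *Rab3il1* met the rule whichever cell was left out. All 4 OFF S alpha cells held rod RNA, but 1 of 3 OFF T alpha cells, so subtype and rod RNA cannot be told apart here. Among the members higher in OFF S alpha cells were *Stx3* and *Cplx4*, both forms of ribbon synapses. The difference of *Cplx4* was 3.17, and 0.60 without OFF S alpha 14 or OFF S alpha 18. *Stx3* read 45572, 476, 83551 and 92738 in OFF S alpha cells and 450, 56 and 185 in OFF T alpha cells, with a difference of 7.36. The groups did not overlap, by the margin of cell 15, whose signal lay below the threshold. *Vamp8*, a SNARE of endosomes and secretory granules, read 35850, 84, 28777 and 162549 in the first and 6, 15 and 105 in the second (6.42). With cell 15 raised to the floor, the geometric mean of the first was 5.28 times the threshold, which is therefore no lower bound.

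The members that stood highest in OFF T alpha cells included *Stx7* (difference -4.16), *Rab39b*, a Rab GTPase of neurons (-4.13), *Stx18* of the endoplasmic reticulum (-3.92, and -1.96 without OFF T alpha 17), *Syt13* (-3.57, and -0.78 without OFF S alpha 16 or OFF S alpha 18) and *Rab37* (-3.52, and -1.76 without OFF T alpha 17). *Stx7* was detected in 0 of 4 OFF S and 2 of 3 OFF T alpha cells. *Stx7*, *Rab39b* and *Rab3il1* did not overlap in this direction (3.7% of members, against 1.67% of all genes). *Syt1* was detected in all 7 cells and was higher in OFF S alpha cells without overlap, at 102947, 70671, 193055 and 76128 against 31576, 51324 and 20899. Its difference of 1.49 was under the rule, and 0.187% of all genes were free of overlap in that direction.

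The 2 ON alpha cells against the 7 OFF alpha cells gave 9 members higher in ON alpha cells (11.1%, against 11.6% of all genes) and 4 higher in OFF alpha cells (4.94%, against 2.39%). Among genes detected in at least 3 cells the shares were 14.5% of members against 26.6% of genes and 7.27% against 6.12%. The largest were *Stx3* (6.42), *Rab37* (5.70) and *Stxbp5* (5.62) in one direction and *Stx5a* (-3.85, and -1.67 without ON alpha 13) and *Cplx2* (-3.70, and -2.06 without ON alpha 12) in the other. The difference of *Stx3* was 3.13 without any 1 of the 3 OFF T alpha cells and 3.17 without OFF S alpha 15. Of the 13 members, *Stx3*, *Rab37*, *Stxbp5* and *Cplx2* met the rule whichever cell was left out. *Stxbp5* read 12066 and 28233 in the ON alpha cells, and among the OFF alpha cells OFF S alpha 14 detected it (21585), and OFF T alpha 17 did at another probe set. *Stx6*, a SNARE of the trans-Golgi network, was detected in ON alpha 12 and no OFF alpha cell, and *Cplx4* in ON alpha 13 and 2 of 7 OFF alpha cells. With 2 cells on one side, each of these medians is the midpoint of 2 log2 signals.

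Several members followed rod RNA across all 29 cells. *Cplx4* was detected in 10 of 18 cells with at least 5 rod genes and in 0 of 11 others, where its highest signal was 186. Against the rod mean its Pearson r was 0.81 and its rho 0.85, and r was 0.81 without the 2 cells whose rod mean lay farthest from the median. *Stx3* was detected in 16 of 18 and in 4 of 11 (r = 0.76, rho 0.76). Its other probe sets were detected in 2, 2 and 0 of the 29 cells, so that its pattern here and above rests on 1 probe set. The 4 cells with *Stx3* and fewer than 5 rod genes were ON-OFF DS 8 (5989), ON hOS 10 (36092), ON alpha 12 (18678) and EyeWire 6sn 22 (49593). *Cplx3*, the other ribbon complexin, was detected in 8 of 18 and in 1 of 11 cells (r = 0.44), and *Vamp8* in 7 of 18 and 0 of 11 (r = 0.44). *Sv2b* was related less to the rod mean (10 of 18 and 3 of 11, r = 0.28, rho 0.32). Its second probe set added the rod-bearing cells ON DS 3 and EyeWire 4i 24. It also added ON-OFF DS 8, ON hOS 10 and ON alpha 12, which had under 5 rod genes. *Slc17a7*, the glutamate transporter of photoreceptors and bipolar cells and no member of the set, was detected in 12 of 18 and 0 of 11.

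**Figure D5:**
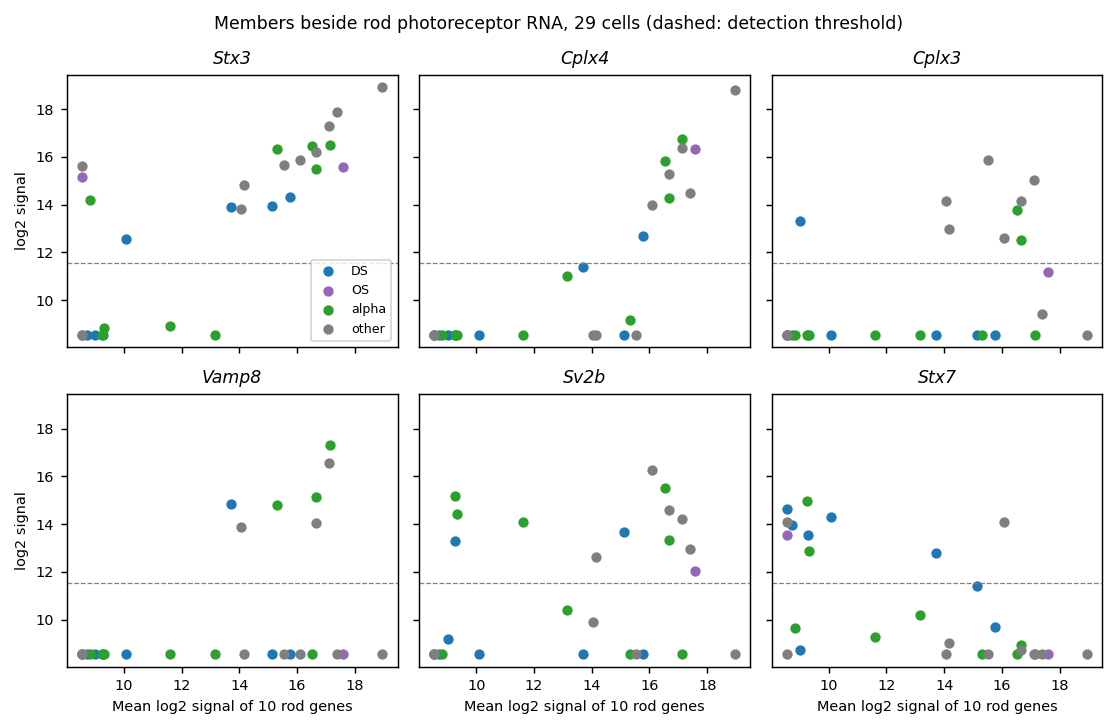
Log2 signals of 6 members against the rod mean of the same cell (average log2 signal of 10 rod genes), 1 point per cell coloured by class, each panel read on its own, with a dashed line at the detection threshold. *Stx3* and *Cplx4* rise with the rod genes in cells of all classes, *Stx7* is detected mainly at the left, and *Sv2b* is detected at both ends.

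In the other direction, *Stx7* was detected in 2 of 18 cells with rod RNA and in 8 of 11 others (r = -0.62, rho -0.63). Detection of *Syt11* differed by 1 cell (17 of 18 and 11 of 11, r = -0.57). *Syn1* was detected in 13 of 18 and 11 of 11, and *Rph3a* in 14 of 18 and 11 of 11. *Syp* had a positive r of 0.47. The cells share the amplification and the scaling of each array to 1 trimmed mean, and the relations are descriptions without a test.

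The window of *Stx3* is shown because it is the member most often detected among those that followed rod RNA. It lies on the minus strand at chr19:11819354-11819653 of GRCm38.p6 by RefSeq, and capitals mark the TATA box, in reverse orientation.
*Stx3*: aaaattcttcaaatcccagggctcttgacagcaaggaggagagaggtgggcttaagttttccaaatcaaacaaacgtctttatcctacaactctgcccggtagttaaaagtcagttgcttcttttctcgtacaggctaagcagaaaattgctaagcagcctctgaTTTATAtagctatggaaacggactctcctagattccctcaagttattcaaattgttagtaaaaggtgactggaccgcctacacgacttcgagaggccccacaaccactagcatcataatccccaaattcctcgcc

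The levels of the members had no common direction of relation to each other from cell to cell. Over the 528 pairs of 33 members detected in at least 10 cells, r ran from -0.77 to 0.84 with a median of 0.04. The 5 highest were *Rph3a* with *Syn1* (0.84), *Slc17a6* with *Syn1* (0.81), *Rph3a* with *Slc17a6* (0.79), *Syn1* with *Syt3* (0.78) and *Syt11* with *Vamp1* (0.75). Ranks gave lower values, such as rho 0.56 for *Rph3a* with *Syn1*. Among the 11 cells with under 5 rod genes, that pair had r = -0.36 and *Slc17a6* with *Syn1* -0.35. In the same cells *Rph3a* with *Slc17a6* had 0.46, *Syn1* with *Syt3* -0.54 and *Syt11* with *Vamp1* 0.16. The lowest r was that of *Cplx4* with *Syn1* (-0.77).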

How the data were processed

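Signals of 29 arrays, 1 per cell, were taken as deposited. They are linear intensity values that the authors computed with MAS5 (version not given in the sources used here), with 1 shared 2% trimmed mean of 1500 on all arrays. Detection calls were not used. Probe sets that the platform annotation gives to several genes (932) or to none (9211) were left out, and 34958 of 45101 stayed in. Where a gene had several, the one with the highest mean of log2 signals was read. Precision is limited by how few arrays there are. Clopper-Pearson intervals at 95% cover counting error only.

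The rule for members uses symbols, but the set, the lists and the other rules were chosen with earlier results of these data known. Named members were those detected in at least 22 cells, the neuronal core and ribbon members, the 10 largest counted differences between DS and alpha cells, the 5 largest of each other comparison, members of 1 subtype, *Syt16*, *Vamp4* and the 5 pairs of highest r. Others were named after their values were seen. A bound of a fold sets the geometric mean of the brighter group, with signals below the floor raised to it, against the detection threshold. It is a lower bound only where no signal of that group was raised. Promoter windows came from RefSeq (GRCm38.p6), matched by symbol. The detection threshold, the floor, the normalization, the choice of probe set and the cells included were varied in turn. The procedure was tested on simulated data. Software was Python 3.11.15 with pandas 2.3.3, scipy 1.17.1 and numpy 2.4.6; matplotlib 3.10.9 drew the figures.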

Additional observations from a re-analysis of the deposited data

Results flagged for a closer look

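Within the subtypes of 4 cells, 51 sets of 4 values were read, those of the number of members detected and of the 16 widely detected members in ON DS, ON-OFF DS and OFF S alpha cells. In 7 of them 1 cell stood apart from its subtype by Dixon's ratio at its 95% critical value, used here only to flag values. For independent sets, chance would give about 1 in 20. The 51 sets share their cells, and values such as *Sv2a* in OFF S alpha 18 lie at the floor. The 7 of 51 are therefore not read as more than chance gives. Among the ON-OFF DS cells, *Snap25* was lowest in cell 5, at a log2 signal of 15.52 against 16.87 to 17.04 in the others, and *Vamp2* was lowest in the same cell, at 14.38 against 15.19 to 15.24. Cell 8 of that subtype was lowest for *Snap47* (13.81 against 16.09 to 16.35) and for *Syp* (16.72, where the highest of the others had 17.06). Among the ON DS cells, *Snap47* was lowest in cell 3, at 11.38 against 16.83 to 17.35, which is below the detection threshold. OFF S alpha 18 stood apart in opposite directions, with *Sv2a* at the floor of 8.55 against 15.03 to 15.34 and *Snap91* highest at 16.37 against 14.85 to 14.89. That cell held 9 of 10 rod genes and 10 of the 16 widely detected members.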

How the results depend on the processing

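The counts of members detected in at least 15 cells (23), in no cell (10) and per cell (median 28) kept within 1.5 times, or within the spread of the cells, except under 2 alternatives. Averaging all probe sets of a gene gave 15, 18 and 21, with 1 member higher in DS cells and 2 in alpha cells (4 and 9 otherwise), 4 counted between the DS subtypes (10 otherwise) and 9 between the OFF alpha subtypes (19 otherwise). Without the cells that held at least 5 rod genes, 19 members were detected in no cell and 26 in at least 50% of the 11 cells left, 1 was higher in DS cells, 17 were counted between the DS subtypes and 23 between ON and OFF alpha cells (13 otherwise), while no OFF S alpha cell was left. A threshold of 4 times the trimmed mean left 2 members higher in DS cells. A floor of 1 times the trimmed mean left 2 higher in DS cells and 6 between the DS subtypes. It left 9 between the OFF alpha subtypes and 7 between ON and OFF alpha cells. Leaving out the rod-bearing cells left 2 ON DS, 3 ON-OFF DS, 1 ON alpha and 2 OFF alpha cells. Shares of all genes were not taken under these alternatives, nor on leaving out single cells. The changed counts therefore describe the settings and are no result about the members.

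On leaving out 1 cell at a time, members detected in at least 50% of the cells numbered 23 to 26, in no cell 10 to 12, higher in DS cells 3 to 5, higher in alpha cells 5 to 9, between the DS subtypes 9 to 15, between the OFF alpha subtypes 13 to 21 and between ON and OFF alpha cells 13 to 17. The difference of *Rab35* between the DS subtypes ran from -0.36 to 5.48. The other alternatives gave 211 values for 27 of the counted differences, those of named members. Of these values, 0 changed sign and 39 moved by more than the spread of the cells. Counted differences beyond the 27 were not in this tally, and some changed sign. Without the rod-bearing cells, which left 1 ON and 2 OFF alpha cells, *Syt4* went from 2.90 to -1.86 and *Vamp4* from -2.72 to 0.0005. No paired analysis was possible because each cell number occurs once. A single array per cell, of unknown animal, limits every value here.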
